A study of Homo sapiens with 5 samples.

Results

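The 10 imprinted genes DLK1, MEG3, CDKN1C, IGF2, H19, PEG10, PEG3, NDN, MAGEL2 and SNRPN were followed through the differentiation of human pluripotent cells into neurons that make gonadotropin-releasing hormone (GnRH). They were chosen by symbol. All 10 had a row among the 36601 genes listed for D0, D5 and D10, and 9 had one among the 33538 genes listed for D22, D24 and D26, where H19 was not listed. GNRH1, the gene of the hormone precursor, was used to divide cells at D24 and D26 and is not a member.

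An imprinted gene is used mainly from the copy inherited from 1 parent, because DNA methylation set in the germ line marks the 2 parental copies of a control region differently. DLK1, IGF2, PEG10, PEG3, NDN, MAGEL2 and SNRPN are textbook paternally expressed genes, and MEG3, H19 and CDKN1C are maternally expressed. Several sit together in clusters under shared control regions, such as DLK1 with MEG3, IGF2 with H19, and NDN with MAGEL2 and SNRPN, and many act on growth, the cell cycle or the hypothalamus. The counts below hold no information on which parental copy was used.

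The cells were WA09, an established human embryonic stem cell line, read by 10x Genomics droplet sequencing of transcript 3′ ends. D0 was undifferentiated. D5_dSMADi and D10_dSMADi had received dorsomorphin and SB431542, which block both branches of SMAD signalling (dSMADi), and D5_XAV939 and D10_XAV939 had received the same plus 10 µM XAV939, a tankyrase inhibitor that lowers WNT signalling. D22, D24 and D26 came from cells that had dSMADi without XAV939, then FGF8, and from day 21 the Notch inhibitor DAPT, and that were frozen and thawed on the way. Each condition was 1 library of 1 cell line, so no difference below has a replicate check and no p-value is given.

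After the filter on cells the libraries held 1008 cells at D0, 2419 for D5_dSMADi, 2815 for D5_XAV939, 2416 for D10_dSMADi, 2168 for D10_XAV939, and 9523, 9107 and 11056 at D22, D24 and D26. Their median depth ran from 7180 UMIs per cell at D24 to 69455.5 at D0, where a UMI is 1 counted transcript molecule. The 5 conditions up to D10 were tagged and pooled in 1 droplet run, and shared 0 cell barcodes. Across runs, D22 and D26 shared the most barcodes, 32, which was 0.336% of the smaller library. As a share of the smaller library the highest was 0.414%, from 10 barcodes of D10_dSMADi and D26. D22 to D26 were separate libraries with another dissociation, depth and gene reference, which cannot be told apart from the day when they are set beside the pool. The markers followed the labelled stages: 5 pluripotency genes summed to 2715 CPM (UMIs per 1000000 UMIs) at D0 and 5.20 at D26, and 5 neuron genes to 225 at D0 and 9807 at D26.

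A level below is a gene's UMIs summed over the cells and divided by all their UMIs, in CPM, with an exact 95% Poisson interval. A ratio carries an exact 95% interval of the split of its UMIs. Both cover counting error only. A 3′ count was not divided by transcript length, and levels are compared for the same gene only. A gene was called when its level differed 2-fold or more and reached 10 CPM in 1 of the groups. The number of these genes at 10 CPM or more was 5 in D0, 5 in D5_dSMADi, 6 in D5_XAV939, 5 in D10_dSMADi, 6 in D10_XAV939, 6 in D22, 5 in D24 and 5 in D26.

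**Figure D1:**
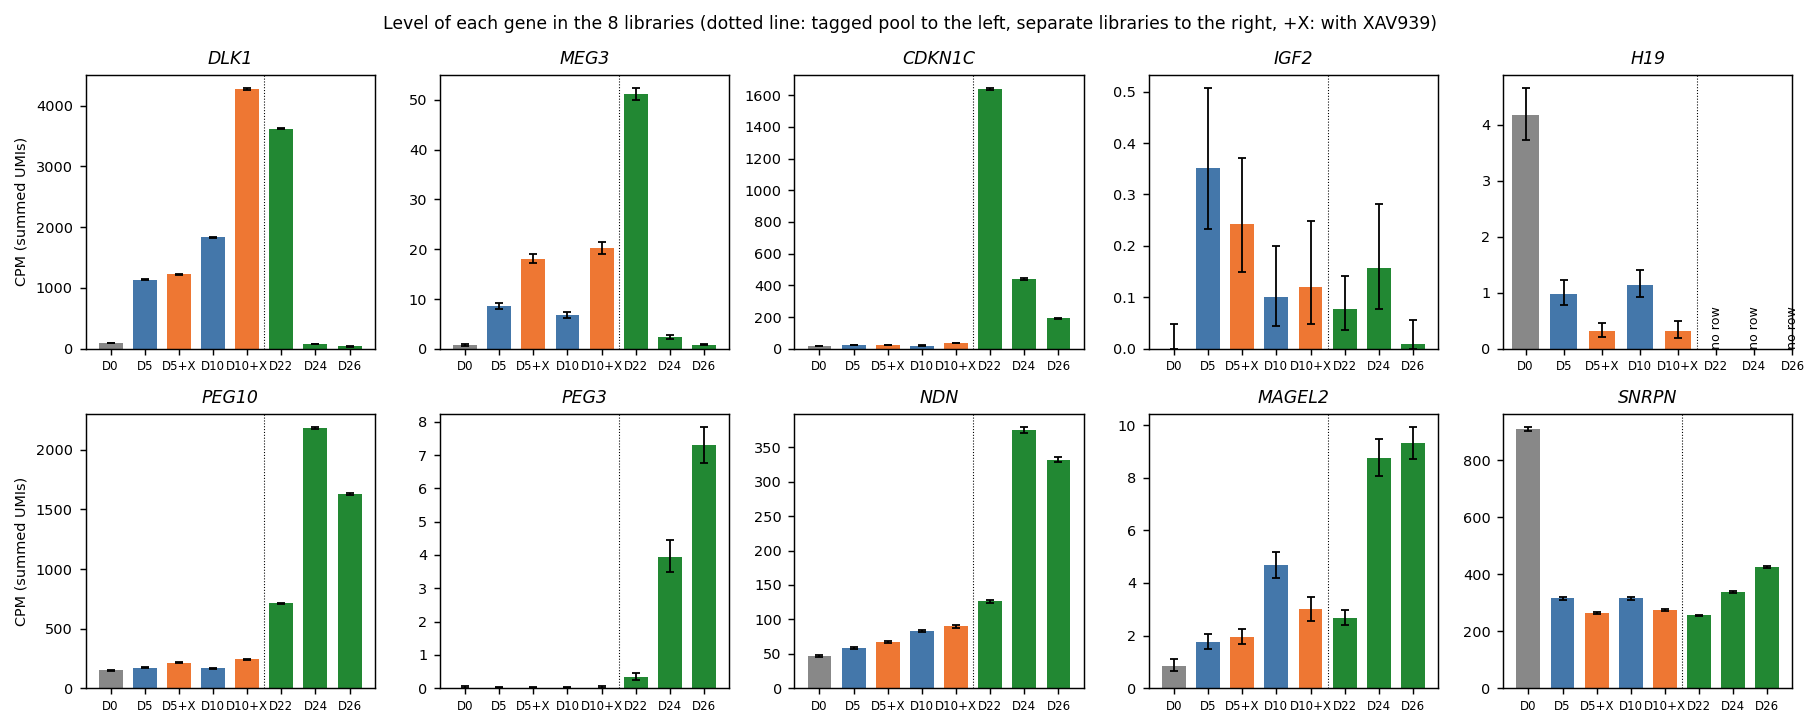
Level of each of the 10 genes (CPM, y axis, 1 scale per panel) in the 8 libraries (x axis, +X with XAV939), with bars for levels and whiskers for 95% counting intervals. DLK1 peaked at 4281 CPM in D10_XAV939 and stood at 38.3 CPM at D26, while PEG3 had 0 UMIs in the 5 pooled libraries.

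DLK1 and MEG3 are neighbours on chromosome 14. DLK1 encodes a transmembrane protein related to Notch ligands that restrains the differentiation of several cell types, and it spans chr14:100725705-100738224 on the plus strand (GRCh38, GENCODE 44). MEG3 is a long non-coding RNA expressed from the other parental copy, and its annotated gene spans chr14:100779410-100861031, also on the plus strand.

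The DLK1 level was 92.3 CPM at D0, 1137 in D5_dSMADi, 1229 in D5_XAV939, 1832 in D10_dSMADi and 4281 in D10_XAV939. It was 3621 CPM at D22, 77.9 at D24 and 38.3 at D26. No neighbours in this order had overlapping counting intervals, and D10_XAV939 stood highest. From D0 to D5_dSMADi the ratio was 12.3-fold (log2 3.62, interval 3.59 to 3.66). SNRPN was the other of the 5 tested members called in that step, and it was lower, while 25.2% of the 8988 genes tested were called.

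The D0 level of DLK1 was 2.16% of its highest level in the same droplet run. Among genes that mark neural progenitors the same share was 1.35% for SOX1, 2.33% for PAX6, 2.79% for HES5 and 21.4% for NES, so they did not share 1 level at D0. RNA from other cells of the pool was not measured directly, and its part in the D0 level of DLK1 was not tested.

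MEG3 was 0.685 CPM at D0, 8.57 in D5_dSMADi, 18.1 in D5_XAV939, 6.73 in D10_dSMADi and 20.2 in D10_XAV939. It then stood at 51.2 CPM at D22, 2.38 at D24 and 0.845 at D26. Intervals of D26 and D0 overlapped, and D22 was the highest library. The 2 ends of this series rested on few molecules, with 52 UMIs at D0 and 84 at D26.

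The 250 bases before a RefSeq start of MEG3, of 3 listed, are shown because MEG3 was the member called at both times with XAV939. They are chr14:100825858-100826107 on the plus strand (GRCh38.p14), inside the wider GENCODE gene. Capitals mark the motifs found, searched on both strands. Such a sequence was available for 5 of the 10 members, and not for DLK1, CDKN1C, IGF2, PEG10 and PEG3.

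MEG3: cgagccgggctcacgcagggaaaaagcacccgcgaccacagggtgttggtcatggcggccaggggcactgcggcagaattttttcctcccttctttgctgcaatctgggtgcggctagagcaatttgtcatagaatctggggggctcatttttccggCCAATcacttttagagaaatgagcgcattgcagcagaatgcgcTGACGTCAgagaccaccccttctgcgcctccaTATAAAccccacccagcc

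The window held the full cyclic AMP response element TGACGTCA, beginning 50 bases before the start, a CCAAT box at 93 bases and a TATAAA box at 18 bases. Over 34943 such windows of RefSeq genes, 1.63% held TGACGTCA, 32.0% CCAAT and 10.8% TATAAA. These are matches of letters only. The window had 13 CG dinucleotides, and its ratio of observed to expected CG, 0.656, was higher than in 56.5% of the windows. No methylation was measured.

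XAV939 was compared with its absence to see how lowered WNT signalling in the first 10 days altered the progenitors. At D5, MEG3 was 2.11-fold higher with XAV939 (log2 1.08, interval 0.95 to 1.21), at 18.1 against 8.57 CPM. It was 1 of 6 tested members called, while 1.19% of the 8181 genes tested were called and 0.611% were called higher. DLK1 was nearly level at D5, with 1229 against 1137 CPM, a log2 ratio of 0.11 (0.10 to 0.12).

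At D10, 2 of the 6 tested members were called, both higher with XAV939, while 2.62% of the 8713 genes tested were called and 1.21% were called higher. MEG3 was 3.00-fold higher (log2 1.59, interval 1.44 to 1.74), at 20.2 against 6.73 CPM. DLK1 was 2.34-fold higher (log2 1.22, interval 1.21 to 1.23), at 4281 against 1832 CPM. The MEG3 difference was thus present at both times, whereas DLK1 passed 2-fold at D10 alone. The difference between the days was not tested.

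**Figure D2:**
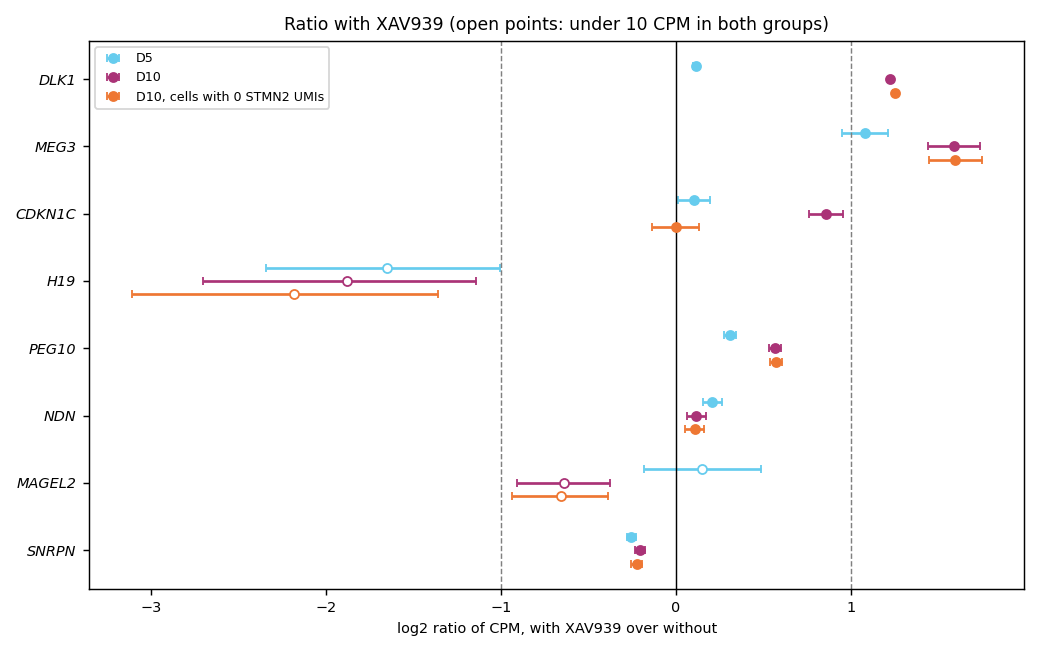
Log2 ratio of CPM with over without XAV939 (x axis) for 8 of the genes at D5, at D10 and in D10 cells with 0 STMN2 UMIs, with 95% counting intervals, open points for genes under 10 CPM in both groups and dashed lines at 2-fold. MEG3 lies past the line at both days, and CDKN1C moves from 0.86 to -0.00052 when cells with STMN2 UMIs are left out. STMN2 UMIs were counted after thinning to 10000 UMIs per cell.

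The ratio of DLK1 between the days was larger with XAV939. With XAV939, D10 stood 3.48-fold above D5 (log2 1.80, or 1.66 relative to the median gene, which moved by 0.14). Without XAV939 the same step was 1.61-fold (log2 0.69, or 0.53 relative to a median shift of 0.16) and was not called. Genes called in these steps were 5.48% with XAV939 and 6.5% without.

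Cells were next ordered by their own DLK1 level and cut into 4 equal groups. In D10_dSMADi the DLK1 level of these groups ran from 701 to 3300 CPM, and MEG3 ran from 4.28 CPM in the lowest to 9.66 in the highest. Other genes moved across the same groups. STMN2, a gene of young neurons, was 60.0 CPM in the lowest and between 3.29 and 9.32 in the others, and from the lowest to the highest the cell division genes TOP2A and MKI67 went from 701 to 401 CPM and from 241 to 136 CPM. Their part in the MEG3 levels was not tested. In D10_XAV939 the DLK1 groups ran from 2377 to 6627 CPM, and MEG3 was 16.4, 21.1, 21.8 and 21.6 CPM. The group lowest in DLK1 with XAV939 thus lay, at 2377 CPM of DLK1, below the 3300 CPM of the highest group without it, and its MEG3 level was above that of all 4 groups without XAV939.

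At D22 MEG3 followed DLK1 over a wider range. The 4 groups had 604, 2872, 4453 and 6672 CPM of DLK1, and 13.0, 49.8, 68.6 and 73.1 CPM of MEG3. The group lowest in DLK1 was highest in STMN2, with 3320 CPM against 743, 635 and 562 in the others. The median depth of the 4 groups was alike, from 11836 to 12681 UMIs. The cells of each library share its free RNA.

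**Figure D3:**
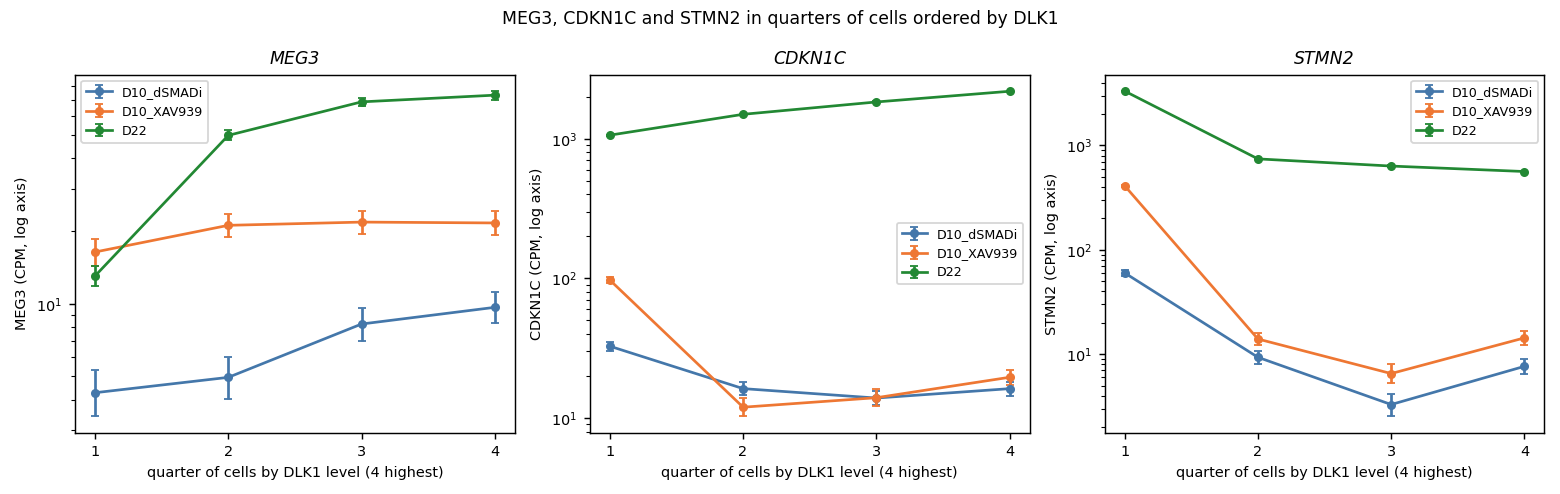
Levels of MEG3, CDKN1C and STMN2 (CPM, log y axis) in 4 groups of cells ordered from lowest to highest DLK1 level (x axis) in D10_dSMADi, D10_XAV939 and D22, with 95% counting intervals. At D22 MEG3 runs from 13.0 to 73.1 CPM and STMN2 from 3320 to 562 CPM.

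Between D22 and D24, 5 of the 6 tested members were called, while 23.1% of the 8453 genes tested were, 10.2% higher and 12.9% lower. DLK1 was 46.5-fold lower at D24 (log2 -5.54, interval -5.58 to -5.50) and MEG3 21.5-fold lower (log2 -4.43). CDKN1C (log2 -1.89) was 3.72-fold lower, and PEG10 and NDN were 3.06-fold and 2.97-fold higher. Over the same step the summed level of 5 cell division genes went from 1047 to 49.3 CPM and that of 5 neuron genes from 1832 to 10375 CPM. A change in the mix of cells and a change within cells cannot be told apart in these totals.

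DLK1 at D22 was present in dividing cells and in the others. Cells were classed after thinning to 1500 UMIs each, so cells with no division UMI left can still hold some in their full counts. DLK1 was 3111 CPM in 1534 cells that had UMIs of at least 2 of 5 division genes. It was 3785 CPM in 6917 cells with none after thinning, a log2 ratio of -0.28. The median depth was 18113.5 UMIs in the former and 11841 in the latter. Among all genes tested between these groups, 12.3% were called, and of the 6 tested members 0 were. For MEG3 the levels were 31.1 and 57.6 CPM (log2 -0.89, interval -0.99 to -0.78).

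From D24 to D26 DLK1 was lower again by 2.03-fold (log2 -1.02, or -1.32 relative to the median gene, which moved by 0.30). The share of genes called in this step was 9.39%, with 2.03% lower, and DLK1 and CDKN1C were the 2 of 5 tested members called, both lower. MEG3 was at 167 UMIs in 9107 cells at D24 and 84 UMIs in 11056 cells at D26.

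The GNRH1-high cells, those with 3000 CPM of GNRH1 or more, were compared with the remaining cells to see which of these genes marked the neurons that make the hormone. There were 345 such cells of 9107 at D24 and 999 of 11056 at D26. Their median depths were 8247 and 9729 UMIs, against 7150 and 8401 in the others.

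At D24, MEG3 was 10.1 CPM in GNRH1-high cells against 2.03 CPM elsewhere, or 2.32 on the log2 scale (interval 1.71 to 2.89). This rested on 31 UMIs, and the level lay just over the 10 CPM limit. MEG3 was under that limit, and no member was called, with no filter on cells (9.95 CPM) or with GNRH1-high set at 1000 CPM (9.46 CPM). MEG3 was the 1 called member of 6 tested, while 7.34% of the 7683 genes tested were called and 2.36% were called higher. DLK1 was 149 against 74.6 CPM, a ratio of 1.99-fold (log2 1.00, interval 0.85 to 1.13) that fell just short of the 2-fold line. The median gene was lower by 0.11 (log2) in GNRH1-high cells, and relative to it DLK1 stood at 1.11 and was past the line, which made 2 members called.

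At D26, DLK1 was 110 CPM in GNRH1-high cells and 29.9 CPM in the others, 3.68-fold higher (log2 1.88, interval 1.78 to 1.98). It was the 1 called member of 6 tested, while 4.89% of the 8442 genes tested were called and 1.98% were called higher. MEG3 was 4.53 against 0.415 CPM, 10.9-fold higher (log2 3.45, interval 2.79 to 4.11), below the 10 CPM needed for a call. Of all 84 MEG3 UMIs at D26, 47 lay in the GNRH1-high cells, or 56.0% (exact binomial interval 44.7 to 66.8). For DLK1 the same share was 30.0% (28.6 to 31.5). The GNRH1-high cells were 9.04% of the cells and held 10.4% of the UMIs of all genes. Both intervals treat each UMI as a separate draw, although UMIs are nested in cells.

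The DLK1 level did not step at the GNRH1 threshold. At D26 it was 25.9 CPM in cells with 0 GNRH1 UMIs, 31.1 CPM in cells above 0 and below 1000 CPM of GNRH1, 101 CPM from 1000 to 2000 and 114 CPM from 2000 to 3000. Just above the threshold, from 3000 to 4000 CPM, it was 125 CPM in 55 cells. It was highest from 4000 to 10000 CPM of GNRH1, at 151 CPM, and 87.3 CPM in the 422 cells at 30000 CPM or more. The cells just below the threshold thus had DLK1 levels within the intervals of those just above it.

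At D24 DLK1 lay between 73.5 and 82.9 CPM in all groups below 4000 CPM of GNRH1. It was 115, 178 and 138 CPM in the 3 groups above. The groups from 1000 to 2000, 2000 to 3000 and 3000 to 4000 CPM held 43, 18 and 16 cells. Their DLK1 levels rested on 32, 11 and 10 UMIs, with intervals of 55.2 to 114, 39.3 to 141 and 36.3 to 139 CPM. These overlapped the intervals of the same groups at D26, 86.0 to 118, 90.5 to 143 and 96.1 to 161 CPM.

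**Figure D4:**
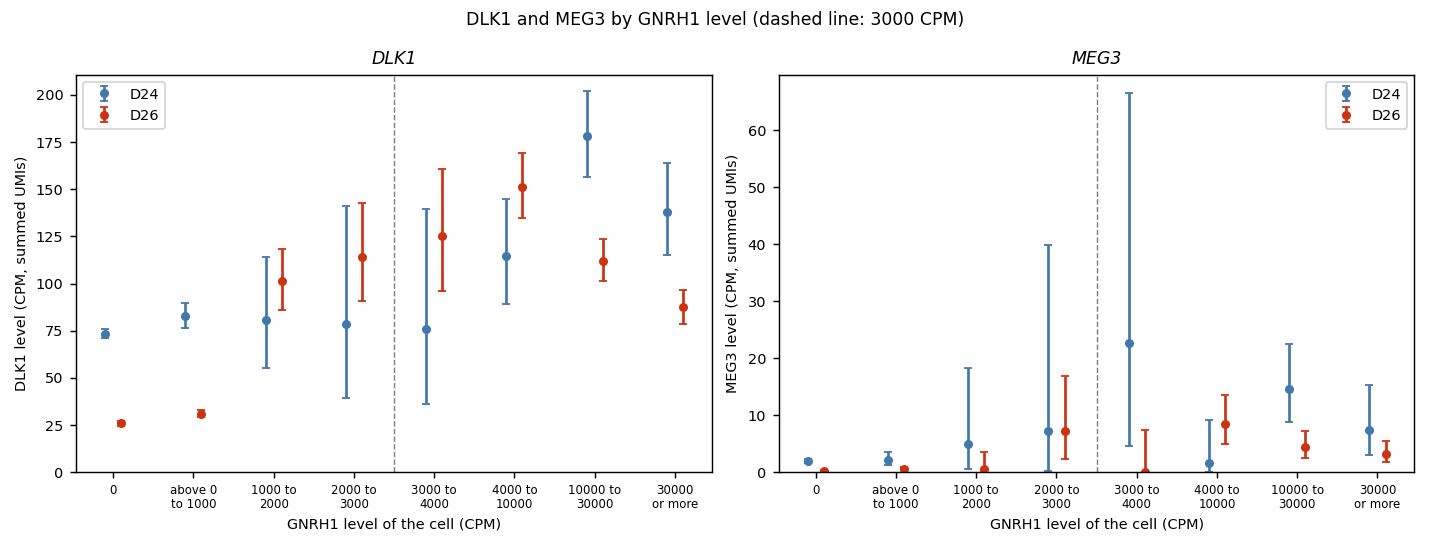
Level of DLK1 and MEG3 (CPM, y axis) in cells grouped by their GNRH1 level (x axis, CPM) at D24 and D26, with 95% counting intervals and a dashed line at 3000 CPM. At D26 DLK1 is 31.1 CPM or less below 1000 CPM of GNRH1 and between 87.3 and 151 CPM in every group above.

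DLK1 at D26 was as high in another class of cells. Cells that were not GNRH1-high, had 2 or more UMIs of the GABAergic genes DLX1, DLX2, DLX5, DLX6 and GAD2 and none of TBR1 or PPP1R17 are called DLX cells here. These marker UMIs were counted after thinning to 1500 UMIs per cell. The 425 DLX cells of D26 still held GNRH1, at 503 CPM against 74.2 CPM in the TBR1-PPP1R17 cells described below. They had 110 CPM of DLK1, and the DLK1 log2 ratio of GNRH1-high over DLX cells was -0.0028 (interval -0.17 to 0.16). Between these classes 1.06% of genes were called and 0 of the 6 tested members. The TBR1-PPP1R17 cells had 2 or more UMIs of TBR1 and PPP1R17 and none of the GABAergic genes after the same thinning. In these 2914 cells DLK1 was 21.0 CPM. GNRH1-high cells were 2.39 (log2) above these, where 5.84% of genes were called. DLX cells were 2.39 above them as well, with 6.8% of genes called, whereas at D24 that log2 ratio was 0.72, with 12.8% called.

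MEG3 at D26 had 8 UMIs in the DLX cells, 2.18 CPM, and 4 UMIs in the TBR1-PPP1R17 cells, 0.155 CPM. The ratio of GNRH1-high over DLX cells was 2.08-fold, with a log2 interval of -0.038 to 2.35 that spans no difference. At D24 the 101 DLX cells had 110 CPM of DLK1 against 149 in GNRH1-high cells (log2 0.43, interval 0.092 to 0.78). MEG3 was the 1 called of 7 tested members there, on 2 UMIs in the DLX cells (log2 1.96, interval -0.012 to 5.07), and 6.23% of genes were called. The 1968 TBR1-PPP1R17 cells of D24 had 66.9 CPM, and against them DLK1 and MEG3 were both called, with 7.83% of genes. These sums over cells do not separate fewer cells with the RNA from less RNA per cell, and the share of cells with the RNA is not given here.

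**Figure D5:**
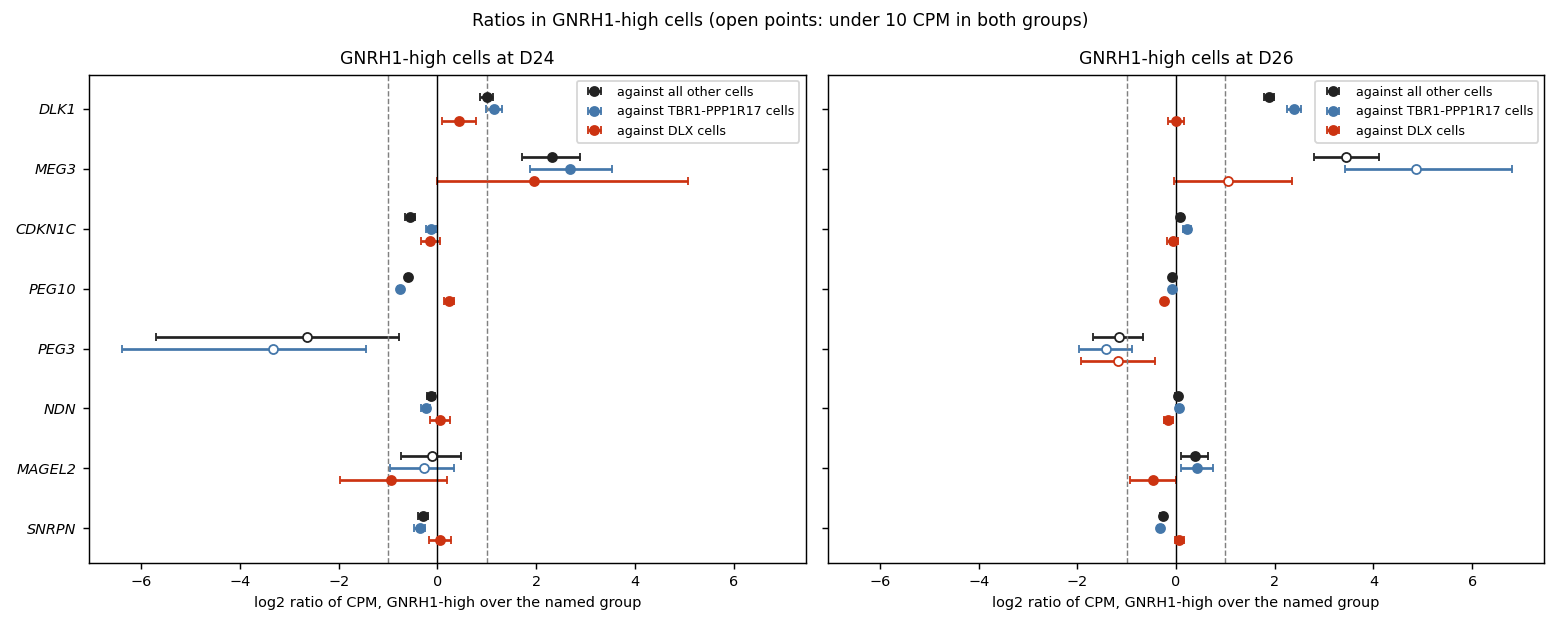
Log2 ratio of CPM in GNRH1-high cells over all other cells, over TBR1-PPP1R17 cells and over DLX cells (x axis) for 8 of the genes at D24 and D26, with 95% counting intervals, open points for genes under 10 CPM in both groups and dashed lines at 2-fold. DLK1 at D26 lies at 1.88 and 2.39 against the first 2 groups and at -0.0028 against DLX cells.

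CDKN1C encodes the p57 inhibitor of cyclin-dependent kinases, which holds cells out of the cell cycle. It lies at chr11:2883213-2885775 on the minus strand. Its level stayed between 15.8 and 35.8 CPM in the 5 pooled libraries and was 1641 CPM at D22, 441 at D24 and 194 at D26. D22 was thus far above the rest, and D5_dSMADi and D5_XAV939 were the only neighbours in the order with overlapping intervals.

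With XAV939 at D10 the CDKN1C level was 35.8 against 19.8 CPM, 1.81-fold higher (log2 0.86, interval 0.76 to 0.95), under the 2-fold line. The UMIs were unevenly spread, with 50% of them in 1.66% of the D10_XAV939 cells. Cells with 5 or more STMN2 UMIs, after all cells had been thinned to 10000 UMIs, were 70 in D10_XAV939 (3.23%) and 18 in D10_dSMADi (0.745%). CDKN1C was 736 CPM in the former and 1172 CPM in the latter.

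In the cells with 0 STMN2 UMIs after that thinning CDKN1C was 14.25 CPM both with and without XAV939, a log2 ratio of -0.00052 (interval -0.14 to 0.13). DLK1 and MEG3 kept their ratios in the same cells, at 1.25 and 1.59 on the log2 scale, with 2.46% of genes called there. In the STMN2 cells DLK1 was lower than in the others by like amounts in both arms, at log2 -1.57 with XAV939 and -1.58 without. Genes called between STMN2 classes were 22% and 37.7%. Between the arms within the STMN2 cells, where 20.8% of genes were called, DLK1 was 2.40-fold higher with XAV939 and PEG10 2.07-fold lower. The 18 STMN2 cells of D10_dSMADi are few, and counting intervals do not cover the spread between cells.

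At D22 CDKN1C was 1039 CPM in the dividing cells and 1823 CPM in cells with no division UMI left after thinning. The log2 ratio was -0.81 (-0.83 to -0.79), under the 2-fold line. In the 4 groups ordered by DLK1 it ran from 1061 to 1497, 1835 and 2189 CPM, so the group highest in DLK1 was also highest in CDKN1C. Across these groups the division gene TOP2A was 415, 573, 343 and 231 CPM and MKI67 151, 202, 132 and 90.2 CPM, both lowest where CDKN1C was highest. Their part in the CDKN1C levels was not tested. In D10_XAV939 CDKN1C was instead highest in the group lowest in DLK1, at 97.2 CPM against 19.6 CPM or less in the others. That group also held most STMN2, with 411 CPM against 14.3 CPM or less.

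The 6 other cyclin-dependent kinase inhibitors listed were mostly low. With XAV939 at D10, 1 of 3 tested was called, beside 2.62% of all genes. CDKN1A, which encodes p21, was 7.06 CPM with and 19.7 CPM without (log2 -1.48). In the dividing cells of D22, 3 of 3 tested were called higher, where 7.62% of genes were. From D22 to D24, 2 of 3 were called, beside 23.1% of all genes. CDKN2C, the gene of p18, was lower (log2 -4.50) and CDKN2D, the gene of p19, higher (log2 1.97). In GNRH1-high cells 0 of the 2 tested inhibitors were called at D24 (7.34% of all genes) or at D26 (4.89%).

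IGF2 encodes a fetal growth factor, and H19 is a non-coding RNA from the same cluster on chromosome 11. IGF2 spans chr11:2129112-2158391 and H19 chr11:1995166-2004552, both on the minus strand. IGF2 had 0 UMIs at D0, which allows up to 0.0395 CPM (3 UMIs), and 28, 21, 8 and 7 UMIs in D5_dSMADi, D5_XAV939, D10_dSMADi and D10_XAV939. The later libraries D22, D24 and D26 held 10, 11 and 1 UMIs. The highest level was 0.351 CPM, in D5_dSMADi, and every neighbouring pair in the order had overlapping intervals. Libraries further apart in the order did differ in places. D10_dSMADi over D5_dSMADi had a log2 ratio of -1.79 (interval -3.13 to -0.62), on 8 against 28 UMIs. Cells with 5 or more IGF2 UMIs numbered 0 in each library. At D22, D24 and D26 the symbol IGF2 was carried by 2 rows, whose UMIs were summed, and 1 of them held 0 UMIs. IGF2 overlaps INS-IGF2 on its own strand, which could take some of its reads, and IGF2-AS on the other strand.

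Other genes of the pathway were measurable where few IGF2 UMIs were counted. The list held the receptors IGF1R, INSR and IGF2R and the proteins IGF2BP1, IGF2BP2 and IGF2BP3, which bind IGF2 messenger RNA. With XAV939, 0 of 6 tested were called at D5 (1.19% of all genes) and 0 of 5 at D10 (2.62%). In GNRH1-high cells it was 0 of 6 at D24 (7.34%) and at D26 (4.89%), and at such shares lists of this size hold few calls or none. From D22 to D24, 2 of 6 were called, beside 23.1% of all genes. IGF2BP1 was lower (161 to 54.3 CPM, log2 -1.57) and INSR, the insulin receptor, higher (28.8 to 81.4 CPM).

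H19 was highest at D0, at 4.18 CPM from 317 UMIs. It was 0.979 CPM in D5_dSMADi, 0.311 in D5_XAV939, 1.14 in D10_dSMADi and 0.310 in D10_XAV939. The ratio with XAV939 was log2 -1.65 (interval -2.34 to -1.004) at D5 and -1.88 (-2.70 to -1.14) at D10. These rested on 27 against 78 and 18 against 90 UMIs, and H19 was too low for a call. The intervals of the pair with XAV939 overlapped, as did those of the pair without.

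PEG10 and PEG3 were highest at D24 and D26. PEG10 derives from a retrotransposon and encodes a Gag-like protein, and it lies at chr7:94656325-94669695 on the plus strand. Its level was 149 CPM at D0, 171 in D5_dSMADi, 212 in D5_XAV939, 165 in D10_dSMADi and 244 in D10_XAV939. At D22 it was 713 CPM, at D24 2183 and at D26 1629. The log2 ratio with XAV939 was 0.31 at D5 and 0.56 at D10, both under 2-fold.

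In GNRH1-high cells PEG10 was 1468 against 2215 CPM at D24 (log2 -0.59, interval -0.64 to -0.55) and 1545 against 1639 at D26 (log2 -0.086). The D24 ratio was 0.23 against DLX cells and -0.76 against TBR1-PPP1R17 cells, which had 2486 CPM, so at D24 its sign depended on the cells compared. At D26 it was negative against both, at -0.25 and -0.074. SGCE overlaps PEG10 on the opposite strand, and use of strand in counting was not stated.

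PEG3, a zinc finger gene at chr19:56810077-56840728 on the minus strand, had 0 UMIs in D0 and in the 4 libraries of D5 and D10. The 3 UMIs that a count of 0 allows would be at most 0.0517 CPM in any of them. Its UMIs numbered 44 in D22 (0.337 CPM), 277 in D24 (3.95 CPM) and 726 in D26 (7.30 CPM).

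These PEG3 UMIs sat in few cells. At D26, 90 cells with 3 or more PEG3 UMIs held 691 of the 726, or 95.2%, while 10939 of the 11056 cells had none, and 1 cell held 23. At D24, 44 cells held 80.5% of the UMIs. The cut at 3 UMIs was chosen after these values were seen. Median depth was 9215 UMIs in the 90 cells and 8477 in those without PEG3. ZIM2, which shares its first exons with PEG3, was 18.0 CPM in the 90 cells and 0.0204 in the cells without PEG3.

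The cells with PEG3 were compared with those without it in the other members and in markers. At D26 NDN was 398 CPM in them and 332 CPM in cells without PEG3, PEG10 1964 and 1626, SNRPN 447 and 423, and DLK1 40.3 and 38.2. MAGEL2 differed more, at 20.1 CPM from 19 UMIs against 9.21 CPM. The 5 neuron genes summed to 10166 and 9802 CPM and the 3 glutamatergic genes to 818 and 721. Neural progenitor genes ran the other way at D26, with 273 CPM in the cells with PEG3 and 345 in those without, as did the GABAergic genes (148 and 188). At D24 the 44 cells had 177 CPM of progenitor genes against 165, and 50.2 CPM of GABAergic genes against 61.0. The part of these markers in the result was not tested. Markers of dividing cells at D26 were 8.48 and 13.2 CPM. At D24 these markers were 5.29 CPM in the 44 cells and 49.8 CPM in cells without PEG3. In the cells with PEG3 only 1 of the 5 division genes had UMIs at D26 and at D24. At D22 the markers were 109 CPM in 5 cells with 3 or more PEG3 UMIs, from 3 of the 5 genes, and 1049 CPM in cells without. With so few cells these gaps were not tested. At D26 the summed levels with and without PEG3 were 6.36 and 5.20 CPM for pluripotency, 5.30 and 9.90 for mesendoderm, 0 and 0.550 for mesenchyme, 0 and 2.35 for trophoblast, 0 and 0.366 for endothelium and 0 and 0.204 for neural crest. At D24 the 44 cells had 2.64 CPM each of trophoblast and endothelial markers, against 2.46 and 2.91 in cells without PEG3. With so few UMIs these last levels could not be told apart at this depth.

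GNRH1 was lower in the cells with PEG3, at 521 against 3306 CPM at D26 and 29.1 against 1139 CPM at D24. Read the other way, PEG3 at D26 was 3.47 CPM in GNRH1-high cells and 7.75 CPM in the others (log2 -1.16, interval -1.69 to -0.68). At D24 it was 0.654 CPM, from 2 UMIs, and 4.10 CPM. The interval counts UMIs, which are bunched in cells.

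NDN, MAGEL2 and SNRPN belong to the chromosome 15 cluster whose paternal loss causes Prader-Willi syndrome. NDN encodes necdin, which restrains growth and promotes differentiation of neurons, and MAGEL2 a related protein that works with a ubiquitin ligase in endosomal recycling. NDN lies at chr15:23685400-23687305 and MAGEL2 at chr15:23643549-23647867, both on the minus strand. The 250 bases before their RefSeq starts are shown because both neighbours were higher at D24 and D26 than at any earlier stage, with GGGCGG boxes on either strand in capitals.

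NDN: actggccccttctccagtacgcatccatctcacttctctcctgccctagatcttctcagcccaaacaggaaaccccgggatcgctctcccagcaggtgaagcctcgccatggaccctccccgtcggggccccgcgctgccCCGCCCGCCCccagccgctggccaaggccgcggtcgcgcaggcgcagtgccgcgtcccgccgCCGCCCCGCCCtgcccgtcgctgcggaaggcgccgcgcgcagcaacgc
MAGEL2: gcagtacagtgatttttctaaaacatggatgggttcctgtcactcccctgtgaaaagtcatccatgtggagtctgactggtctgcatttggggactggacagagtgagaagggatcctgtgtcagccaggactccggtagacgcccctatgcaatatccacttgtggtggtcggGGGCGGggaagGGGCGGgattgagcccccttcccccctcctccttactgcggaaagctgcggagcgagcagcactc

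The NDN window is chr15:23687306-23687555 and the MAGEL2 window chr15:23647868-23648117, minus strand, GRCh38.p14. The former held 4 GGGCGG matches on the antisense strand, in overlapping pairs, and the latter 2 on the sense strand, and 42.5% of all windows held at least 1. TGACGTCA, CCAAT and TATAAA had no match in either. CG dinucleotides numbered 30 in the NDN window and 8 in the MAGEL2 window.

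NDN was 46.3 CPM at D0, 57.9 in D5_dSMADi, 66.8 in D5_XAV939, 82.9 in D10_dSMADi and 89.9 in D10_XAV939. It was 126 CPM at D22, 375 at D24 and 332 at D26. Within the pool each later day had the higher level, and D24 stood above D26. With XAV939 the log2 ratio was 0.21 at D5 and 0.12 at D10, and in GNRH1-high cells it was -0.13 at D24 and 0.032 at D26. None of these came near 2-fold.

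MAGEL2 was 0.856 CPM at D0, 1.76 in D5_dSMADi, 1.95 in D5_XAV939, 4.67 in D10_dSMADi and 3.00 in D10_XAV939. It was 2.68 CPM at D22, 8.75 at D24 and 9.32 at D26. Intervals of the last pair overlapped. With XAV939 the log2 ratio was 0.15 (interval -0.18 to 0.48) at D5 and -0.64 (-0.91 to -0.38) at D10, under 10 CPM in both groups. In GNRH1-high cells of D26 it was 11.7 against 9.04 CPM (log2 0.38, interval 0.092 to 0.65), and in DLX cells 16.3 CPM. Its partners TRIM27, USP7 and WASHC1 were all tested in the XAV939 and GNRH1-high comparisons, and 0 of 3 were called in each, where the share over all genes was between 1.19% and 7.34%.

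SNRPN encodes SmN, a form of the Sm core protein of splicing particles, and spans chr15:24823637-24978723 on the plus strand. SNURF and SNHG14 overlap it on the same strand, so their reads can be mixed with it. SNHG14 was listed for D0, D5 and D10 but not for D22, D24 and D26. SNRPN was 910 CPM at D0, 315 in D5_dSMADi, 263 in D5_XAV939, 315 in D10_dSMADi and 273 in D10_XAV939. It was 255 CPM at D22, 336 at D24 and 424 at D26. D0 was 2.89-fold above D5_dSMADi (log2 -1.53 for D5 over D0, interval -1.55 to -1.51), and D5_dSMADi and D10_dSMADi overlapped.

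Over the same step SNHG14, named here for its overlap and after its values were seen, was 796 and then 398 CPM, a log2 ratio of -0.9995 that was just under 2-fold. The 7 other Sm protein genes had a median log2 ratio of -0.78 against -0.12 over all genes tested, and 0 were called where 25.2% of all genes were. The log2 ratio of SNRPN with XAV939 was -0.26 at D5 and -0.20 at D10, and in GNRH1-high cells it was -0.29 at D24 and -0.27 at D26. Against DLX cells it was 0.052 and 0.067, with intervals that span 0.

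Other imprinted genes were listed as 17 paternally expressed genes and 15 of mixed kind. For D22, D24 and D26 only 16 of the 17 had a row, SNHG14 being absent. Most of the 15 are maternally expressed or differ between isoforms or tissues, and DIO3 was placed among them. With XAV939 at D5, 0 of 8 and 0 of 6 tested were called, beside 1.19% of all genes. At D10 it was 1 of 9 and 0 of 7, beside 2.62%. Counts this small cannot be set apart from those shares. The called gene was PLAGL1, a zinc finger gene, at 19.7 CPM with XAV939 and 62.7 CPM without (log2 -1.67). PLAGL1 had been 8.12 CPM in D5_dSMADi and 5.997 CPM in D5_XAV939. The median log2 ratio at D10 was 0.0013 for the paternal list and 0.19 for the other, against 0.024 over all genes tested.

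In GNRH1-high cells at D24, 1 of 8 and 0 of 5 tested were called, beside 7.34% of all genes. The called gene was MEST, which encodes a hydrolase-like protein of growing tissues, at 851 against 239 CPM (log2 1.83). Against DLX cells, which had 797 CPM of MEST, it was not called (log2 0.095, interval -0.033 to 0.22), nor was any other of the 8 and 5 tested, where 6.23% of all genes were. At D26, 1 of 10 and 1 of 8 were called, both lower, beside 4.89%. They were DIRAS3, a small GTPase, at 5.01 against 14.7 CPM, and DIO3, which inactivates thyroid hormone, at 9.15 against 31.8 CPM. In the DLX cells of D26 these genes were at 3.53 and 9.79 CPM, under 10 CPM in both groups and so not tested. Of the 9 and 7 genes tested against DLX cells, 0 were called, beside 1.06% of all genes.

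DIO3 lies in the DLK1 cluster. It was 90.7 CPM at D22, 9.61 at D24 and 29.4 at D26. From D22 to D24 it was thus lower along with DLK1 and MEG3 (log2 -3.24), and it was the 1 called of 6 tested in its list, beside 23.1% of all genes. From D24 to D26 it was higher (log2 1.62) where DLK1 was lower, as 1 of 2 called among 8 tested, beside 9.39%.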

How the data were processed

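Droplet 3′ RNA sequencing of WA09 cells was analysed. The authors aligned reads to GRCh38 and deposited UMI counts per gene and barcode, without normalization. The file headers name Cell Ranger 3.1.0 for D22 to D26 and 6.1.2 for the tagged pool, the labels 3.1. The condition of each pooled matrix was checked against its tag, which was the top tag in every kept cell. Cells were kept by the study's limits, except that the complexity limit at D0 was read as an upper one, which kept 1008 of 1292 barcodes. The study's cell counts equal those kept at D0 and D22 to D26. For D5_dSMADi, D5_XAV939, D10_dSMADi and D10_XAV939 its counts equal the deposited barcodes (2480, 2919, 2778 and 2638), of which the limits kept 2419, 2815, 2416 and 2168 here. No doublet caller was run. UMIs were summed per group and scaled to CPM in Python 3.11.15 (NumPy 2.4.6, SciPy 1.17.1, pandas 2.3.3). Depth ran from 58073098 to 130440502 UMIs per library. Cell classes used UMIs thinned to 10000 (pool) or 1500 (D22 to D26) per cell. With 1 library per condition no test was run. The 10 genes are always named, and from other lists at most the 6 largest folds of those called. Alternatives covered filters, scaling, weighting of cells, fold, GNRH1 threshold and comparison group. The ratio interval was tested on simulated data. The members and lists were chosen with earlier results of these data known.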

Additional observations from a re-analysis of the deposited data

Results flagged for a closer look

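CDKN1C in GNRH1-high cells had opposite signs at the 2 days. The log2 ratio over the other cells was -0.55 (interval -0.65 to -0.46) at D24, from 305 against 447 CPM, and 0.077 (0.011 to 0.14) at D26, from 203 against 192 CPM. Each day was 1 library, and the difference between the days was not tested. Against DLX cells the ratios were -0.14 (-0.34 to 0.062) and -0.072 (-0.19 to 0.048). Within the other cells of D24, those in neither the DLX nor the TBR1-PPP1R17 class had 481 CPM and the TBR1-PPP1R17 cells 336 CPM.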

How the results depend on the processing

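No paired analysis was possible because each condition was 1 library. Of 37 recomputed counts of called members, 24 stayed within 1.5 times the reported count. For GNRH1-high cells at D24, where 1 member (MEG3) was called, the count was 0 with no filter on cells or with GNRH1-high at 1000 CPM, since MEG3 then fell to 9.95 and 9.46 CPM. It was 2 with DLK1 added under median-of-ratios scaling, the mean over cells of CPM per cell, without the 5% of cells with most UMIs, GNRH1-high at 10000 CPM, against cells with 0 GNRH1 UMIs, and with totals without GNRH1. It was 3 at a fold of 1.5 (DLK1, MEG3, PEG10) and 3 with no filter on low levels beyond 4 UMIs (MEG3, PEG3 on 2 UMIs and IGF2 on 1). The share of all genes called also depends on the fold and the filter. These counts are therefore not read as results about the members. At D26, where 1 (DLK1) was called, the count was 0 against DLX cells. There the DLK1 log2 ratio was -0.0028, and 1.06% of all genes were called. The D26 count was 3 with no filter on low levels (DLK1, MEG3 and PEG3). With XAV939 at D5, where 1 (MEG3) was called, it was 2 with no filter on low levels, H19 being added. The counts at D10 and of members at 10 CPM or more stayed within 1.5 times. Ratios of members kept their sign in 194 of 206 recomputations. IGF2, H19, MAGEL2 and PEG3 were limited by depth, and doublets and free RNA were not removed.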
